A study of Homo sapiens with 20 samples.

Results

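Clustered histone genes are the replication-dependent histone genes that lie together in a few regions of the genome, and their level was followed here in polyadenylated RNA of differentiating human neural progenitor cells. The members are the coding gene records that carry a symbol of the HIST1, HIST2, HIST3 or HIST4 clusters, chosen by symbol and not by level. The rule found 68 records of 20237 coding records and 38369 records in all. They comprise 6 records of the linker histone H1, 15 of H2A, 18 of H2B, 13 of H3, 15 of H4 and 1 record that merges an H2A with an H3 gene. The HIST1 cluster on chromosome 6 holds 53 of them, the HIST2 cluster on chromosome 1 holds 11, the HIST3 cluster on chromosome 1 holds 3 and HIST4 on chromosome 12 holds 1. The cells were neural progenitors made from the human embryonic stem cell line H1, which is established and in wide use, so every sample comes from the same line. They were kept on Matrigel with the growth factor FGF until day 0, when FGF was withdrawn and the neurotrophic factor BDNF was added. RNA was collected on day 0 and again on days 1, 2, 4, 5, 11 and 18, from 3 cultures each and from 2 on day 5, where the submitters had removed an outlier. Cells collected on day 5 or later had been replated on day 4 on Poly-D-lysine and laminin, so the new surface and the passage of time cannot be told apart between day 4 and day 5.

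Core histones H2A, H2B, H3 and H4 wrap DNA into nucleosomes, and histone H1 binds the DNA between them. Most of the supply is made in S phase, when DNA is copied, from clustered genes whose mRNAs end at a conserved 3′ stem-loop instead of a poly(A) tail. The stem-loop binding protein SLBP and the U7 small nuclear ribonucleoprotein act at this end, while NPAT drives transcription of the clusters. Some clustered genes are also known to give longer, polyadenylated transcripts in cells that leave the cell cycle. Libraries made from poly(A) RNA therefore see the polyadenylated share of histone RNA and say little about the total.

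Levels are FPKM, fragment counts scaled for transcript length and library depth, with 1 value per record and day that is pooled over the cultures of that day. No values of single cultures were used, so no replicate error, confidence interval or test can be given and the depth behind a value is unknown. A change below is a difference in log2(FPKM + 0.1), which understates the change of low records, and a record is called higher or lower when that difference is at least 1, a 2-fold change. The summed FPKM of coding records went from 358744 on day 0 to 216151 on day 18, and the median change of the 11793 expressed coding records, those whose FPKM averaged 1 or more over the days, was -0.60 between these days. Changes are therefore also given relative to that median, as recentred values. In bulk RNA, fewer cells that make a transcript and less RNA per cell cannot be told apart. Of the member records, 42 have fewer than 500 exon bases, and the FPKM of so short a record depends on the fragment length assumed. The comparison table deposited by the authors marks 30 members as having enough reads to test in all 6 steps between adjacent days and 22 in none.

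Polyadenylated histone RNA was a small part of the coding signal. The summed FPKM of the 68 records was 132 on day 0, 118 on day 1, 89.6 on day 2, 80.1 on day 4, 108 on day 5, 109.9 on day 11 and 128 on day 18. As a share of all coding FPKM this was 0.0367% on day 0, 0.0249% on day 4 and 0.0593% on day 18. The sum was thus lowest on day 4 and on day 18 stood at 97.4% of its day 0 value, while the coding sum stood at 60.3%. Few members carried it. Of the 68 records, 19 were expressed by the same limit (1 of H1, 8 of H2A, 5 of H2B, none of H3 and 5 of H4), and 18 records had a mean below 0.1. The first 5 records of each day held between 49.1% and 56.8% of the sum. The record with the highest level was HIST1H2BH on day 0, HIST1H2BK at days 1 to 5, HIST2H2BE on day 11 and HIST3H2A on day 18.

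**Figure D1:**
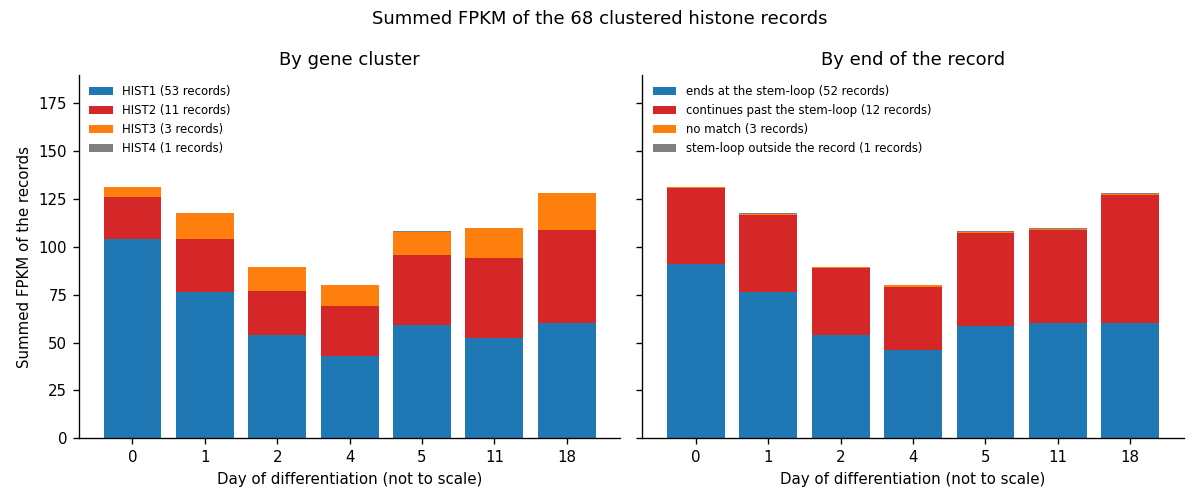
Summed FPKM (bars, axis from 0) of the 68 clustered histone records at each day, split by gene cluster (left) and by where the record ends relative to the 3′ stem-loop (right). The HIST1 part was 104 on day 0 and 60.4 on day 18, while the HIST2 part was 21.7 and 48.5.

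Among the H2A records, HIST3H2A had the highest mean level. Its single exon lies at chr1:228645066-228645560 (hg19, minus strand), and its FPKM was 5.43 on day 0, 13.3 on day 1, 12.1 on day 2, 10.6 on day 4, 11.2 on day 5, 14.8 on day 11 and 17.9 on day 18. Day 0 was the low point, and most of the difference was already present on day 1. HIST2H2AC, which also codes for an H2A, had the opposite course, with 7.10 on day 0, 3.48 on day 1, 2.87 on day 2, 2.12 on day 4, 1.73 on day 5, 2.08 on day 11 and 0.741 on day 18. Its highest value was therefore on day 0 and its lowest on day 18, a ratio of 9.58. HIST1H2AC, an H2A gene with a long record of 1699 exon bases, stood at 2.87 on day 0, 4.77 on day 1, 4.12 on day 2, 2.91 on day 4, 4.10 on day 5, 2.99 on day 11 and 7.83 on day 18. It moved up and down until day 11 and had its highest level on day 18. HIST2H2AA3 is represented by a pair of records that are 100% identical in sequence, so reads cannot be assigned between them, and each was listed at 3.57 on day 0, 7.54 on day 5 and 6.94 on day 18. The other expressed H2A records were low: HIST1H2AK lay between 0.781 and 2.12, HIST1H2AE between 0.790 and 1.23 and HIST1H2AG between 0.706 and 1.43. HIST1H2AG, with a mean of 1.02, was the last member inside the filter, and the H2B record HIST2H2BF, with 0.918, the first outside it.

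The H2B records gave the largest share of the summed histone FPKM at every day, from 36.8% on day 1 to 45.96% on day 0. HIST1H2BK (chr6:27106073-27114619, minus strand) had the highest mean of all members. Its FPKM was 22.1 on day 0, 15.2 on day 1, 13.2 on day 2, 12.05 on day 4, 18.3 on day 5, 10.9 on day 11 and 9.60 on day 18. It was highest on day 0, with a further high value on day 5, after replating. HIST1H2BH (chr6:26251879-26252302, plus strand), whose record is a single exon of 424 bases, was 23.9 on day 0, 13.1 on day 1, 7.37 on day 2, 5.18 on day 4, 4.92 on day 5, 7.55 on day 11 and 2.25 on day 18. This was the lowest ratio of day 18 to day 0 among the expressed records, at 0.0943. HIST2H2BE (chr1:149856012-149858232, minus strand), an H2B gene with a record of 2221 exon bases, went the other way, from 2.37 on day 0 to 6.41 on day 1, 5.74 on day 2, 7.12 on day 4, 11.5 on day 5, 18.9 on day 11 and 17.4 on day 18. HIST1H2BD (chr6:26158349-26171574, plus strand) lay between 3.27 and 5.496 up to day 11, with rising values from day 4 on, and was highest on day 18. Its values were 3.41, 4.02, 3.99, 3.27, 4.47 and 5.496 at days 0, 1, 2, 4, 5 and 11, and 15.3 on day 18. HIST1H2BG was low throughout, at 2.23 on day 0, 0.456 on day 4 and 1.68 on day 18.

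The H4 signal came from HIST1H4J, HIST1H4K and the HIST2H4A and HIST2H4B copies. HIST1H4J (chr6:27791903-27792257, plus strand) was 10.6 on day 0, 10.8 on day 1, 5.61 on day 2, 4.44 on day 4, 4.98 on day 5, 5.00 on day 11 and 4.67 on day 18. HIST1H4K (chr6:27798953-27799305, minus strand) followed it closely, with 9.34, 10.3, 4.87, 4.32, 4.95, 5.09 and 4.30 at the same days. Both were high at days 0 and 1 and near a common lower level from day 2 on. These records are 99.2% identical over the shorter of them, so their agreement is not independent and their reads are hard to divide. HIST2H4A and HIST2H4B share a pair of identical records, each listed at 1.60 on day 0, 2.97 on day 5, 3.41 on day 11 and 5.06 on day 18, the highest value of the course. HIST1H4H lay between 0.679 on day 4 and 1.52 on day 0.

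Of the linker histone records, HIST1H1C alone was expressed by this limit. HIST1H1C (chr6:26055969-26056699, minus strand), which codes for an H1 found in many tissues, was 8.82 on day 0, 3.81 on day 1, 2.44 on day 2, 1.64 on day 4, 4.90 on day 5, 2.98 on day 11 and 2.65 on day 18. The value on day 5 stood above those at days 1, 2 and 4. The other 5 H1 records had means of at most 0.127. Of the H3 records none reached a mean of 1, and together they gave between 3.02% and 4.29% of the summed histone FPKM. HIST2H3C, again a pair of identical records, was the H3 member with the highest mean and had 0.415 on day 0, 0.668 on day 5 and 1.66 on day 18. The nucleosome holds H3 and H4 in equal number, while in these libraries the H4 sum was 27.1 on day 0 and 22.2 on day 18 against 5.14 and 5.5003 for H3.

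**Figure D2:**
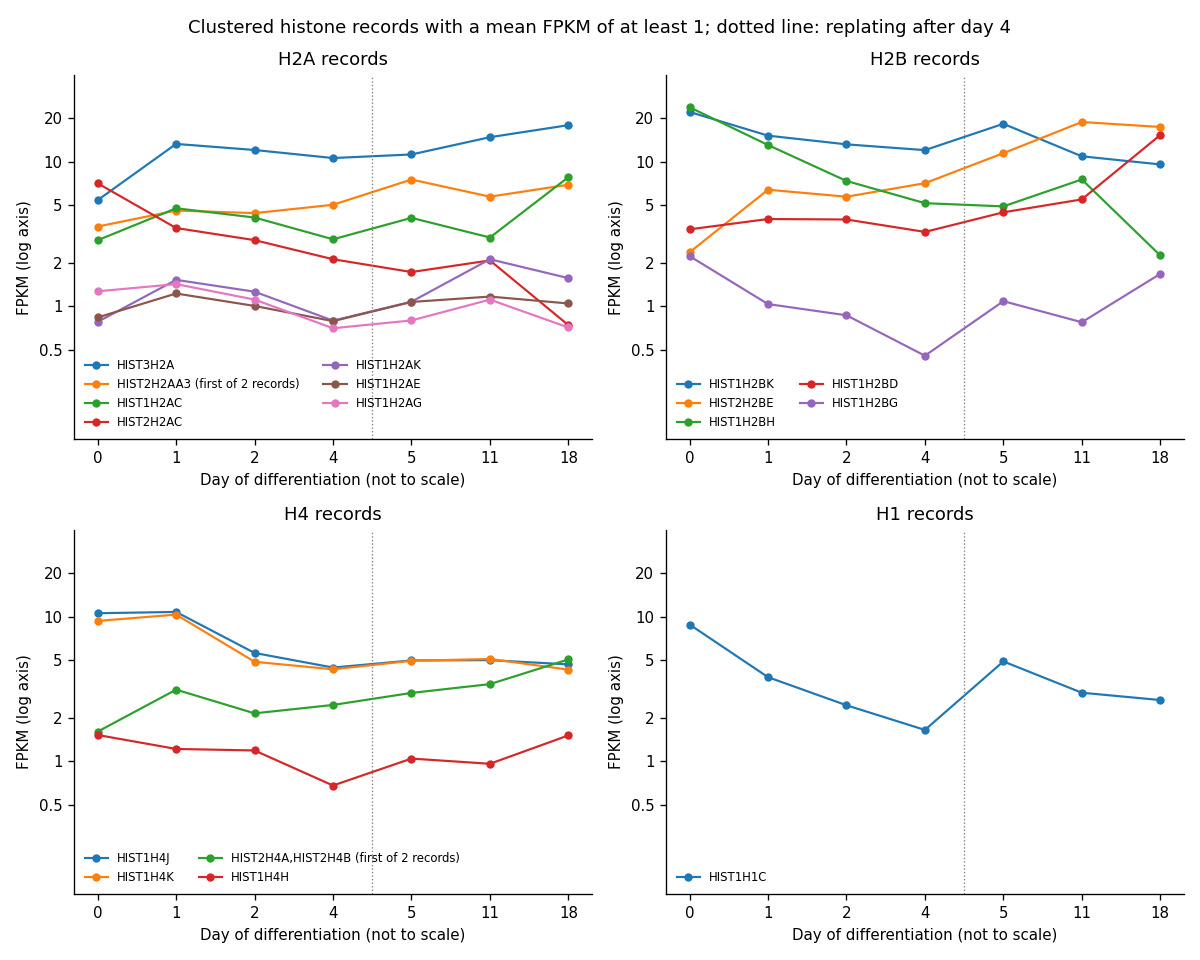
FPKM (log axis) of the expressed records (mean of 1 or more) at each day, in panels by histone family, with 1 point per record and day and no error bars because the deposited values are already pooled over cultures. HIST2H2BE was 2.37 on day 0 and 17.4 on day 18, while HIST1H2BH was 23.9 and 2.25.

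Between day 0 and day 18, named members moved in opposite directions within a family. Of the 19 expressed records, 6 were called higher and 6 lower, beside 7.57% and 29.9% of the 11793 expressed coding records. On the recentred scale 9 were higher and 3 lower, beside 14.7% and 12.1%. Among these 19 expressed records the share called lower was thus close to the background and the share called higher above it. No test of this difference was made. Counting identical copies once left 5 higher and 6 lower of 17. The called higher records were HIST2H2BE with a change of 2.83, HIST1H2BD with 2.14, HIST3H2A with 1.70, the HIST2H4A and HIST2H4B pair with 1.60 each and HIST1H2AC with 1.42. The called lower records were HIST1H2BH with -3.35, HIST2H2AC with -3.10, HIST1H1C with -1.70, HIST1H2BK with -1.20, HIST1H4J with -1.16 and HIST1H4K with -1.10. After recentring, HIST1H2BK at -0.60, HIST1H4J at -0.56 and HIST1H4K at -0.50 no longer passed, and HIST1H2BG and HIST1H4H, at -0.39 and -0.01 as deposited, changed sign to 0.21 and 0.59. Over all 68 records, with most of them at very low levels, 10 were higher and 27 lower, beside 8.02% and 20.1% of all 20237 coding records without a filter. Recentred, 20 were higher and 13 lower, beside 16.1% and 8.49%. Over all 68 records the shares called higher and called lower were thus both above the background on either scale, again without a test. The background was not matched to these records for level or length. With identical copies counted once, 8 were higher and 27 lower of 65 as deposited. By family, and to be read beside the same 8.02% and 20.1%, the called records were 0 higher and 2 lower of 6 for H1, 2 and 7 of 15 for H2A, 4 and 6 of 18 for H2B, 2 and 7 of 13 for H3 and 2 and 5 of 15 for H4. Recentred, beside 16.1% and 8.49%, H1 had 0 higher and 2 lower and H2A 5 and 6. H2B then had 6 and 2, H3 4 and 2 and H4 4 and 1, so in these 3 families the balance depended on the scale.

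**Figure D3:**
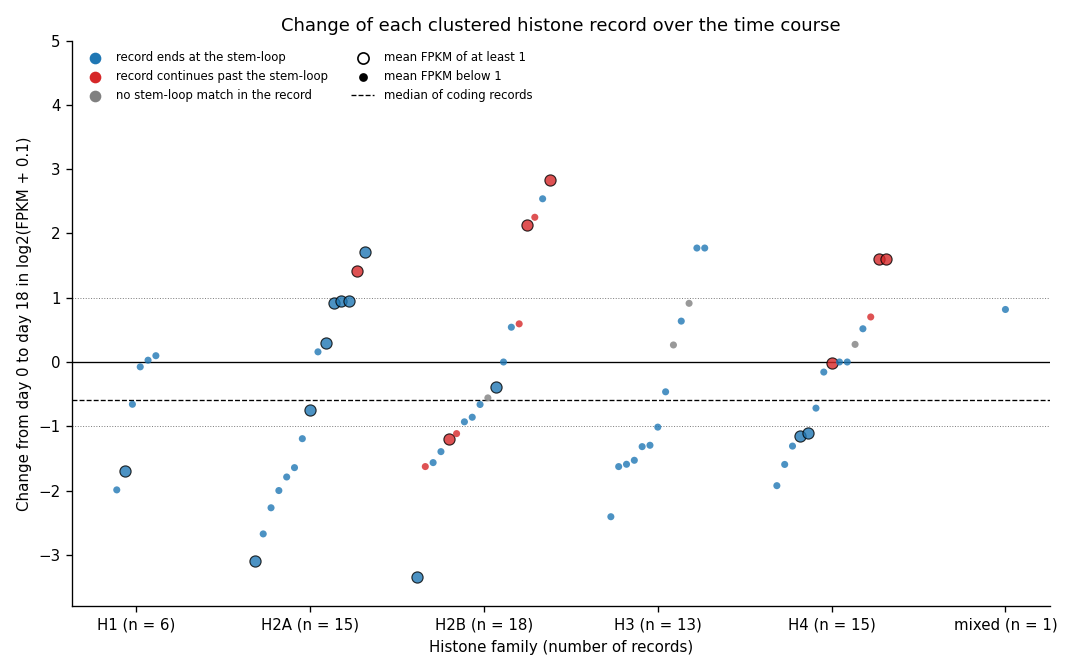
Change from day 0 to day 18 in log2(FPKM + 0.1) for each of the 68 records (points) by histone family, coloured by where the record ends, with larger outlined points for expressed records. The dashed line marks the coding median of -0.60 and the dotted lines the 2-fold limits, and HIST2H2BE at 2.83 and HIST1H2BH at -3.35 mark the ends of the H2B range.

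The sequence that sets the 3′ end of a replication-dependent histone mRNA was looked for in every record. The letters GG, any 2 bases, CTTTT, any base, AG, any base and GCC were searched on the strand of the gene within each record and 100 bases beyond it, and 65 of 68 records held a match. The forms shown here are those of members called higher or lower from day 0 to day 18, though not of all such members. The 16 matched bases are in capitals with 5 flanking bases on each side, read from the hg19 genome.
HIST2H2BE, chr1:149857733-149857758, minus strand: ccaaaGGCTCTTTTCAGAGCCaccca
HIST1H2BH, chr6:26252278-26252303, plus strand: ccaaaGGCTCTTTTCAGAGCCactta
HIST3H2A, chr1:228645065-228645090, minus strand: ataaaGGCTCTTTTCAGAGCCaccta
HIST2H2AC, chr1:149858936-149858961, plus strand: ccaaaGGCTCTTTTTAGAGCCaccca
HIST1H2BK, chr6:27114140-27114165, minus strand: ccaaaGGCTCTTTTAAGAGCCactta
HIST1H2BD, chr6:26158810-26158835, plus strand: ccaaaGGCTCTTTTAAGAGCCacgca
HIST1H4J, chr6:27792232-27792257, plus strand: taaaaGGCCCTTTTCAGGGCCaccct
HIST1H4K, chr6:27798951-27798976, minus strand: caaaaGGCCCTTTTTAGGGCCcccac
HIST2H2BE and HIST1H2BH hold the same 16 bases, and their levels ran in opposite directions. Whether the form of the stem-loop bears on the level was not tested. The most frequent form, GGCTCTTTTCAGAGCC, occurred in 38 records, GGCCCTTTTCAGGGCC and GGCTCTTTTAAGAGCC in 10 each and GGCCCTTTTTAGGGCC in 4. HIST1H2BI, HIST1H4L and the merged HIST1H3E and HIST1H3F record held no match, and in HIST2H3D the match lay beyond the end of the record.

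Where the records differ is in what follows the stem-loop. In 52 records the exons end at or shortly after it, with a median of 4 and at most 51 exon bases left, while 12 records go on for 190 to 4200 bases. This division was made after the levels had been seen. The last 30 exon bases of members that go on are shown because they hold the letters AATAAA, the usual signal for cleavage and polyadenylation, in capitals.
HIST2H2BE, chr1:149856012-149856041, minus strand: attgttattAATAAAgttaccaattaattt
HIST1H2BD, chr6:26171545-26171574, plus strand: ttataattAATAAAatctgcggagaattgt
HIST1H2BK, chr6:27106073-27106102, minus strand: accttAATAAAtttgtatgccttttctctt
HIST2H4A and HIST2H4B, chr1:149806165-149806194, plus strand: ggactctgAATAAAgagcagaatgattggc
Of the 12 records that go on, 8 hold AATAAA or ATTAAA in their last 40 bases. Of the 52 that end at the stem-loop, HIST1H4J alone does, where AATAAA lies just before the stem-loop itself. Over all members this is 13.2%, against 71.9% of the 3932 other coding records on chromosomes 1, 6 and 12.

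Records that continue past the stem-loop had higher levels as a group than those that end there, and the balance between them differed across days. Their median of mean FPKM was 2.06 against 0.200. The 12 continuing records summed to 39.7 FPKM on day 0, 33.0 on day 4 and 66.6 on day 18, and the 52 records ending at the stem-loop to 91.0, 46.3 and 60.3. Within the continuing sum, HIST2H2BE went from 2.37 on day 0 to 17.4 on day 18 and HIST1H2BD from 3.41 to 15.3. The share of the continuing records in the histone sum was 30.2% on day 0, 41.2% on day 4, 44.7% on day 5 and 52.0% on day 18. From day 0 to day 18, 6 of the 12 continuing records were called higher and 3 lower, with a median change of 1.06, beside 8.02% and 20.1% of all coding records. Of the 52 ending records, 4 were higher and 24 lower, with a median of -0.81. The identical HIST2H4A and HIST2H4B records count as 2 of those 6, and the identical HIST2H3C records as 2 of those 4. Recentred, the counts were 8 higher and 1 lower of 12 and 11 higher and 12 lower of 52, beside 16.1% and 8.49%. The division did not hold for every member. HIST3H2A ends 4 bases after its stem-loop and was called higher, as was its neighbour HIST3H2BB, at 0.0933 on day 0 and 1.02 on day 18. HIST1H2BK and HIST1H2BJ go on for 388 and 1622 bases and were called lower, with changes of -1.20 and -1.63. HIST1H2BJ was 1.79 on day 0 and 0.511 on day 18. How much of the reads of a continuing record came from the part beyond the stem-loop cannot be read from the deposited FPKM.

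The gene clusters differed in the same sums. The 53 HIST1 records gave 79.2% of the histone FPKM on day 0 and 47.1% on day 18, the 11 HIST2 records 16.5% and 37.9%, and the 3 HIST3 records 4.26% and 14.9%. Of the HIST1 records, 2 were called higher (HIST1H2BD and HIST1H2AC) and 25 lower, with a median change of -0.86, beside 8.02% and 20.1% of all coding records. Recentred, 8 were higher and 11 lower, beside 16.1% and 8.49%. Of the HIST2 records, 6 were higher and 2 lower, with a median of 1.60, and recentred 8 were higher and 2 lower. Among those 11 stand 3 pairs of identical copies. In HIST3, 2 of 3 were higher and none lower. HIST4H4, the only HIST4 record, had a mean of 0.0661. HIST2H2BF, the record nearest below the filter, was 0.484 on day 0, 0.956 on day 11 and 2.68 on day 18, and 18.4% of its exon bases overlap FCGR1A on the opposite strand.

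Many H2A and H2B genes lie head to head and share the short stretch between their starts. Head to head histone records formed 12 pairs, of which HIST1H2BL with HIST1H3H joins an H2B to an H3 gene and HIST1H2BF lies beside the merged HIST1H2AD and HIST1H3D record. In the 12 pairs the gap was 205 to 346 bases, and 9 gaps held the octamer ATTTGCAT, bound by the OCT1 transcription factor, on either strand. In 6 pairs both records had a mean of at least 0.5. Of these, 3 had changes of opposite sign as deposited and 2 when recentred. HIST2H2BE and HIST2H2AC were farthest apart, at 2.83 and -3.10, a difference of 5.93 across a gap of 292 bases. In the HIST1H2BC and HIST1H2AC pair, HIST1H2BC was 1.37 on day 0 and 0.578 on day 18, a change of -1.11, beside 1.42 for HIST1H2AC. HIST1H2BG and HIST1H2AE, at -0.39 and 0.29, were of opposite sign only as deposited. Records of the HIST3H2A and HIST3H2BB pair were both higher, by 1.70 and 2.54. The gaps of these contrasting pairs follow, read on the plus strand of hg19, with the octamer or its reverse complement in capitals where present.
HIST2H2BE and HIST2H2AC, chr1:149858233-149858524: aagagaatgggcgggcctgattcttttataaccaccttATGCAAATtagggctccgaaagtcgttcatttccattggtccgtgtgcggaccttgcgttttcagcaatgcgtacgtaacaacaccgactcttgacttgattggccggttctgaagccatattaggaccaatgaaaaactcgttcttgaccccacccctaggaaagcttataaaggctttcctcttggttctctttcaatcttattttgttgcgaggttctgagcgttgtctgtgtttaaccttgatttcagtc
HIST1H2BC and HIST1H2AC, chr6:26124155-26124372: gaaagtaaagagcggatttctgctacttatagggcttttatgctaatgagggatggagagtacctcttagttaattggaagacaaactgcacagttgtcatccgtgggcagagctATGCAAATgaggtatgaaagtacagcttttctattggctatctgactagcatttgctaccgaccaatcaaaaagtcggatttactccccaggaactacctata
HIST3H2A and HIST3H2BB, chr1:228645561-228645807: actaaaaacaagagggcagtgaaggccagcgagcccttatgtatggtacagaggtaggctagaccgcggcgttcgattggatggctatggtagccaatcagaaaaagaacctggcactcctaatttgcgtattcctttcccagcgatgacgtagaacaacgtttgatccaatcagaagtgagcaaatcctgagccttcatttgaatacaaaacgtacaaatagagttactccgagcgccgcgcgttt
Among the 12 pairs, gaps with an octamer occur both where the changes were opposite and where they were alike. HIST3H2A, the H2A member with the highest mean, has none in its gap. Whether the octamer bears on these changes was not tested.

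**Figure D4:**
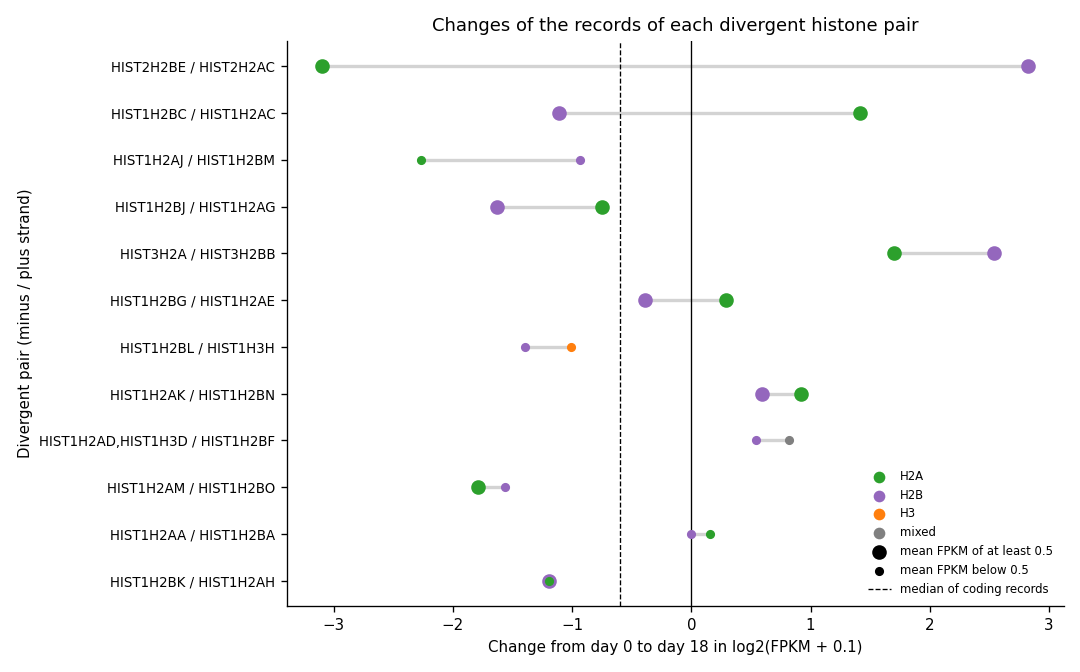
Change from day 0 to day 18 in log2(FPKM + 0.1) of the records of each of the 12 divergent pairs, 1 line per pair ordered by the difference between its records, coloured by family, with larger points for a mean of 0.5 or more. HIST2H2BE and HIST2H2AC lie 5.93 apart, while the points of HIST1H2BK and HIST1H2AH fall on each other.

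Promoters taken from RefSeq (GRCh38), from 250 bases before to 50 bases after the start, were available for 57 of 67 histone symbols. In head to head pairs, with gaps of 205 to 346 bases, the windows overlap, so the same match can count for both genes. The H2A and H2B counts below are therefore not independent. The octamer ATTTGCAT, searched on both strands, was present in 11 of 14 H2A and 9 of 13 H2B promoters, in 1 of 11 H3 promoters and in none of the 6 H1 or 13 H4 promoters, against 1.77% of all 35116 promoters of the same length. CCAAT was found in every H1, H2A, H2B and H3 promoter and in 3 of 13 H4 promoters, against 34.6% of all. TATAAA was found in 3 of 6 H1, 10 of 14 H2A, 9 of 13 H2B, 9 of 11 H3 and 7 of 13 H4 promoters, against 11.5% of all. Such matches describe letters in a window and not factor binding.

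Between adjacent days the records moved together at some steps and apart at others. On day 1 against day 0, HIST2H2BE with 1.401 and HIST3H2A with 1.28 were called higher and HIST1H1C with -1.19, HIST1H2BG with -1.03 and HIST2H2AC with -1.01 lower among the 19 expressed records, beside 3.6% and 3.09% of coding records. From day 1 to day 2 all 19 had a lower value, beside 38.2% of coding records. Here and below the 19 include the identical HIST2H2AA3 pair, the identical HIST2H4A and HIST2H4B pair and the near-identical HIST1H4J and HIST1H4K. The values within each pair are not independent. The change of HIST1H4K, -1.07, passed the 2-fold limit downwards and none passed upwards, beside 0.144% and 0.136%. From day 2 to day 4 none passed in either direction, beside 0.127% higher and 0.653% lower. After replating, from day 4 to day 5, 17 of 19 had a higher value, beside 32% of coding records. HIST1H1C at 1.52 and HIST1H2BG at 1.09 were called higher and none lower, beside 0.254% and 0.0509%. The 2 with a lower value were HIST1H2BH and HIST2H2AC. None passed from day 5 to day 11, beside 1.8% higher and 4.24% lower. From day 11 to day 18, HIST1H2BD with 1.46, HIST1H2AC with 1.36 and HIST1H2BG with 1.02 were higher, beside 0.839%, and HIST1H2BH with -1.70 and HIST2H2AC with -1.37 lower, beside 3.72%. Across the course, 6 of the 19 had their highest level on day 0, 4 on day 1, 2 on day 5, 2 on day 11 and 5 on day 18. The lowest level was on day 0 in 8, on day 4 in 7 and on day 18 in 4.

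Some of these records share exon bases with noncoding records on the other strand, and the default setting of the authors' programs does not use strand. HIST1H2BD shares 58.3% of its exon bases, and HIST1H1E 87.4%, with linc-HIST1H1E-AS, which itself was listed at 0.0737 on day 0 and 0.146 on day 18. HIST1H4H shares 48.5% with linc-HIST1H4H-AS, at 0.0876 and 0.0591. The merged HIST1H3E and HIST1H3F record lies wholly within linc-HIST1H3E-AS, at 0.395 and 0.322. How reads were divided within these overlaps was not tested.

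The genes listed as replication-independent histone variants, most of which give ordinary polyadenylated mRNAs outside S phase too, summed to far higher levels. Their 12 records summed to 1699 FPKM on day 0 and 771 on day 18, and 0 of 12 were called higher and 4 lower, with a median change of -0.69, beside -0.60 for coding records. Of the expressed coding records 7.57% were called higher and 29.9% lower. Recentred, 0 of the 12 were higher and 3 lower, beside 14.7% and 12.1%. H2AFZ, which codes for H2A.Z, went from 605 to 111, H2AFX, which codes for the damage-marked H2A.X and is known to give a stem-loop mRNA as well as a polyadenylated one, from 152 to 33.7, H2AFY, a macroH2A gene, from 170.0 to 73.5, and CENPA, the centromeric H3, from 18.7 to 2.40. The H3F3 records, which include genes of the replacement H3.3, differed less. H3F3B on chromosome 17 was 151 on day 0 and 112 on day 18, a second record named H3F3B, which lies on chromosome 1 where GENCODE places H3-3A, was 218 and 193, and H3F3C was 67.1 and 49.6. The linker histone gene H1F0 was 28.0 on day 0, 61.3 on day 2 and 26.3 on day 18, and H1FX was 110.0 and 66.9 at days 0 and 18. H2AFV was 95.6 and 49.4, H2AFY2 82.8 and 52.4, and H2AFJ 1.02 and 0.804.

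Genes of DNA replication and mitosis were lower on day 18, as were most histone chaperones. Of 14 histone mRNA processing genes, 0 were called higher and 7 lower, with a median of -1.10, but recentring left 1 lower. For this and the next lists, 29.9% of expressed coding records were called lower as deposited and 12.1% recentred. SLBP was 36.9 on day 0 and 15.4 on day 18, SRRT 57.1 and 23.6, CPSF3, the nuclease of 3′ end cleavage, 38.1 and 15.6, SYMPK 25.5 and 17.1, LSM10 of the U7 particle 23.9 and 12.3, and NCBP1 of the cap binding complex 18.0 and 10.9. NPAT, named here for its role after its values were seen, was 5.08 and 3.46. Of 10 histone chaperones and histone-modifying partners, 7 were lower on either scale and 0 higher, with a median of -1.83. NASP, which carries H3 and H4, was 189 and 56.9, HAT1 44.3 and 11.5, DAXX 38.7 and 12.3, and the record of HIRA and C22orf39 42.0 and 31.8. All 21 DNA replication genes matched, of 23 listed, were called lower on either scale, with a median of -2.38. PCNA, the replication clamp, was 198 and 49.5, the helicase subunits MCM7 192 and 42.3 and MCM4 84.8 and 18.0, and the thymidylate synthase TYMS 158 and 31.9. All 9 mitosis genes were lower too, with a median of -2.83, as in CCNB1 at 145 and 20.3, TOP2A at 104 and 25.3, PLK1 at 71.6 and 14.3 and MKI67 at 74.2 and 14.2. On day 18 the summed FPKM of the DNA replication list was 19.6% of its day 0 value and that of the mitosis list 16.9%, against 66.3% for histone records that end at the stem-loop, 168% for those that continue past it and 60.3% for all coding records. The 66.3% leans on HIST3H2A, which ends at the stem-loop and went from 5.43 to 17.9 while the ending sum went from 91.0 to 60.3. The identical HIST2H2AA3 records, which also end there, were each listed at 3.57 on day 0 and 6.94 on day 18. Of the 52 ending records 15 had a change above 0 and 34 below 0. The 168% leans on HIST2H2BE, from 2.37 to 17.4, and HIST1H2BD, from 3.41 to 15.3, while the continuing sum went from 39.7 to 66.6. Of the 12 continuing records 8 had a change above 0 and 4 below 0.

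**Figure D5:**
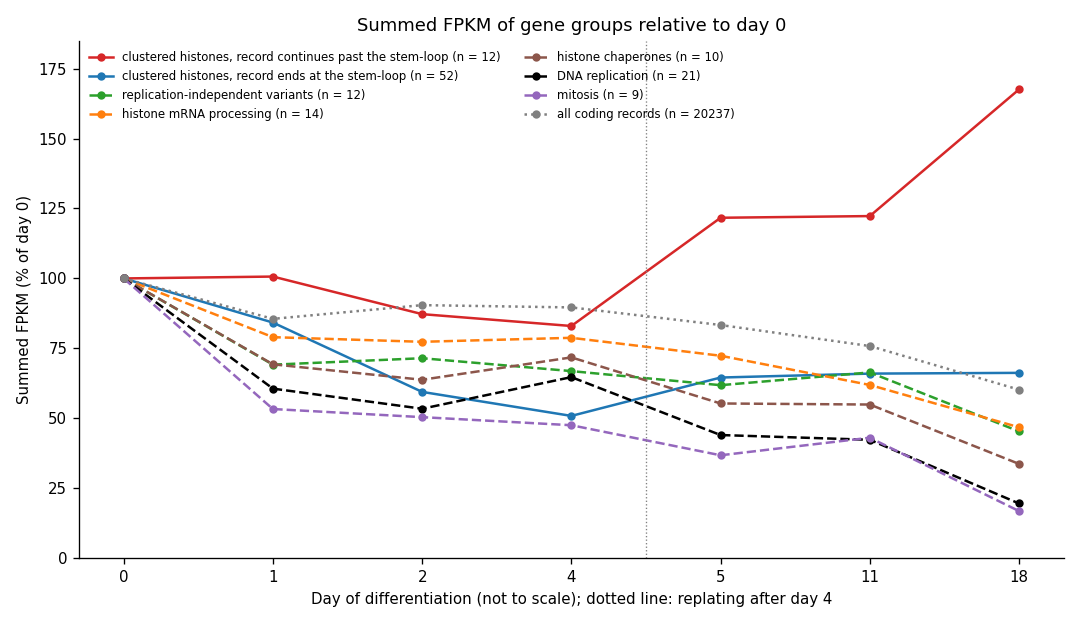
Summed FPKM of each gene group at each day as a percentage of its day 0 sum, with histone records split by the end of the record (solid lines), other lists dashed and all coding records dotted. On day 18 the histone records that continue past the stem-loop stood at 168% and the DNA replication genes at 19.6%. The rise of the continuing sum lay mainly in HIST2H2BE and HIST1H2BD.

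The cell type markers show what else changed in the cultures over these days. Progenitor markers were present from the start, with NES at 513 on day 0 and 180.4 on day 18, SOX2 at 126 and 66.1, MSI1 at 47.8 and 35.2 and SOX1 at 11.1 and 8.61. PAX6, a progenitor factor added here after its values were seen, was 4.31 and 10.4, so that of the 5 progenitor markers 1 was called higher and 1, NES, lower. Recentred, PAX6 was higher and none lower, and 3 of the 5 lay above 0. Of 6 neuron markers, 5 were called higher and 1 lower, beside 7.57% and 29.9% of expressed coding records. The neuron markers summed to 303 on day 0 and 1146 on day 18. STMN2 was 32.3 and 727, DCX 5.46 and 88.0, MAP2 93.5 and 205 and NEFL 153 and 68.1. Of the 4 pluripotency genes with a record, DNMT3B alone had a mean of at least 1, at 20.1 and 6.90, and POU5F1, at 0.0886 and 0.0358, was close to 0. Mesenchymal markers were also high on day 0, where their 7 records summed to 647 against 56.9 on day 18. TAGLN was 367 and 19.4, COL3A1 238 and 30.5, COL1A2 33.6 and 3.81 and LUM 5.80 and 2.06, and COL1A1 was listed at 0. Of 5 mesenchymal records with a mean of at least 1, 4 were called lower. Of 6 glia markers S100B alone had such a mean, at 8.68 and 4.25, and GFAP was at 0.186 and 0.0394. The mesenchymal sum was thus lower and the neuron sum higher on day 18 than on day 0. Any part of these shifts in the histone changes was not tested.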

How the data were processed

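RNA-Seq libraries were made by the submitters with the TruSeq kit from total RNA of the 20 cultures. The authors used TopHat2 for alignment (hg19, paired-end reads), Cufflinks for assembly and Cuffdiff2 for levels, at default options; program versions are not given in the sources used here. The deposited FPKM matrix holds 1 value per record and day, pooled by the authors over cultures. The deposited comparison table repeats these FPKM values for 6 pairs of adjacent days beside fold changes, test statistics, p-values and q-values; these 4 kinds of column hold the study's findings and were not used. From that table only the FPKM values, exon coordinates and the mark of read support were taken. The table and the matrix gave the same FPKM for every member and differed for 4 records.

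Groups were taken from the sample titles. Changes were computed in log2(FPKM + 0.1) with Python 3.11.15, pandas 2.3.3 and numpy 2.4.6, and called at a size of at least 1. Limma and every other test were left out because each day holds 1 pooled value, so depth and replicate error are unknown. The background is all coding records whose mean FPKM was 1 or more or, for counts over all members, every coding record. Named are the members with such a mean, the highest member of each family, the records on either side of that limit and the highest genes of each list; members named elsewhere in the text illustrate the ends of records, the pairs and the overlaps and were chosen after their values were seen. Sequences were read with pysam 0.24.0 from GRCh37, whose primary chromosomes are those of hg19. The members and lists were chosen with earlier results of these data known. Alternatives tried were the pseudocount, the filter, recentring, a 1.5-fold limit, leaving out near-identical copies, and, chosen after seeing the data, day 11 in place of day 18.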

Additional observations from a re-analysis of the deposited data

How the results depend on the processing

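The counts moved mainly with the filter. Another pseudocount cannot turn the sign of a change. The median removed by recentring, -0.60 from day 0 to day 18, was smaller in size than the limit of 1. The direction of the called records was therefore fixed under these settings and says nothing about how firm the calls are. From day 0 to day 18, 6 records were higher and 6 lower among those with a mean FPKM of at least 1; without a filter these were 10 and 27, at a mean of at least 0.1 they were 10 and 23, and recentring left 3 lower. For adjacent days the numbers called at days 1, 2, 4, 5, 11 and 18 were 5, 1, 0, 2, 0 and 5. Without a filter they were 23, 5, 5, 7, 4 and 11, at a mean of at least 0.1 they were 17, 5, 5, 6, 2 and 11. A pseudocount of 1 gave 3 on day 1, 0 on day 2, 1 on day 5 and 3 on day 18. The 1.5-fold limit gave 10 on day 1, 4 each at days 2, 4 and 5 and 5 on day 11. Recentring gave 1 on day 11, and leaving out near-identical copies and merged records gave 0 on day 2. A looser filter or limit counts more records by construction, and the cause of the other differences was not tested. A pseudocount of 0.01, day 11 in place of day 18 and the FPKM of the comparison table kept every count or sum they were applied to within 1.5 times. The members behind the day 11 counts were not all the same. HIST1H2BD, at 3.41 on day 0 and 5.496 on day 11, and HIST1H2AC, at 2.87 and 2.99, did not pass. HIST1H2AK, at 0.781 and 2.12, did. No paired analysis was possible because the files hold 1 pooled value per day. For the same reason limma and the fits without single replicates were not run, and no smallest detectable change can be given.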

Other observations

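Of the 25 long noncoding records named after a clustered histone gene, none of which is a member, linc-HIST1H2AG-4 alone had a mean FPKM of at least 1. It lies at chr6:26671220-26689262 (hg19, plus strand) and was 1.75 on day 0, 2.997 on day 4, 3.05 on day 5 and 2.30 on day 18. The record linc-HIST2H2BF-1 followed with a mean of 0.987, and linc-HIST1H2AG-5 and linc-HIST1H4H-2 were listed at 0 on every day.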
